A study of Mus musculus with 16 samples.

Results

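A set of 10 genes of fatty acid uptake and lipid droplet handling, Cd36, Lpl, Gpihbp1, Fabp3, Fabp4, Plin2, Plin4, Plin5, Pnpla2 and Dgat2, were followed through mouse ventricles on 4 diets. They were chosen by gene symbol, and all 10 were found among the 17737 genes of the deposited count table. The groups were 4 mice fed a primate formula called NIA, 4 fed a primate formula called UW, 4 fed mNIA, an NIA formula adjusted so that its sucrose and fat match UW, and 4 fed standard rodent chow. All were male C57BL/6 mice put on their diet at 6 weeks of age, allotted to it at random, and kept on it for 6 months with free access to food. Each library was made from poly-A RNA of the lower ventricles of 1 animal and sequenced as 75-base single reads. The series as a whole asks what diet does to cardiac ageing and fibrosis.

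The heart draws most of its energy from fatty acids. Lipoprotein lipase, carried to the capillary wall, frees them from circulating triglyceride, CD36 and related proteins pass them into the cell, and small binding proteins ferry them through the cytosol. What is not burned is re-esterified into triglyceride and held in lipid droplets, whose coat proteins, the perilipins, govern how readily lipases reach the store. Many of these genes are targets of the peroxisome proliferator-activated receptors (PPARs), nuclear receptors that sense fatty acids.

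The libraries held from 2278250 to 63005490 counts in NIA, from 4880235 to 6583532 in UW, from 3870480 to 6544172 in mNIA and from 4263827 to 5953964 in chow, so NIA replicate 2 was 27.7 times as deep as NIA replicate 4. Limma's sample quality weight, which is low for a library that departs from its group over all genes, was under 0.5 in NIA replicate 1 (0.30), NIA replicate 4 (0.16), mNIA replicate 2 (0.36) and chow replicate 3 (0.23). In NIA replicate 4 genes of long transcripts were low and genes of short transcripts high, with a Spearman's rho of -0.50 across 13260 genes between transcript length and the library's deviation. UW replicate 4 leaned the other way, at 0.46, and the other libraries lay between -0.26 and 0.32. The 10 ventricular cardiomyocyte markers had medians from 34.6 CPM for Nkx2-5 to 27061 CPM for Myh6, and Myl2 had 10445 CPM. CPM are counts scaled to the same total in every library. Of 3 atrial markers, Myl7 gave 111 counts in all 16 libraries together, 81 of them in a single library. Myl4 had a median of 1.95 CPM and was at 0 in no library, and Sln was not listed. The titles and the codes on the libraries do not spell the 3 primate formulas alike. The libraries titled NIA are coded MNC, those titled UW are coded NC and those titled mNIA are coded UC, and the groups here follow the titles. Whether these 3 names were exchanged cannot be told apart from the labels alone, so the mean of the 3 formulas was also set against chow.

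With all 16 libraries, none of the 10 genes passed the threshold in any diet contrast by edgeR. Gpihbp1 and Fabp4 passed in mNIA minus NIA by 2 other fits, which weigh down or leave out the same 4 libraries. The shares over all tested genes in those fits, given below, do not set these 2 genes apart. In edgeR's quasi-likelihood test, with p-values adjusted over 13381 genes and a threshold of 0.05, 0 of 10 passed in NIA minus chow, UW minus chow, mNIA minus chow, UW minus NIA, mNIA minus NIA, mNIA minus UW, the mean of the 3 formulas minus chow and the joint test of any diet difference. The share of all tested genes that passed was 0% in each of these but mNIA minus chow, where it was 0.00747%, which is 1 gene, Phtf1os, not among the 10. At an unadjusted p under 0.05 edgeR counted 1 of the 10 in NIA minus chow (Fabp3), 2 in UW minus NIA (Plin2 and Plin4) and 1 in mNIA minus NIA (Gpihbp1), against 1164, 1858 and 1192 of all 13381 genes, and 0 of the 10 in the other contrasts. DESeq2 passed 0 of the 10 in every contrast. Its share of all genes was 0.949% in NIA minus chow, 2.8% in UW minus NIA, 0.0224% in mNIA minus NIA, 1.3% in the joint test, 0.00747% in UW minus chow and in mNIA minus UW, and 0% in the others. Limma-voom with sample quality weights passed 2 of the 10, Gpihbp1 and Fabp4 in mNIA minus NIA, where it passed 14.8% of all genes. It passed 0 of the 10 elsewhere, beside 0.209% of all genes in NIA minus chow, 6.85% in UW minus NIA, 14.8% in the joint test, 0.0299% in the mean of the 3 formulas minus chow and 0.00747% in each of the other contrasts. EdgeR was also fitted without the 4 libraries of low quality weight, a choice made after seeing the data. There it passed 2 of the 10 in mNIA minus NIA (23.1% of all genes) and 2 in the joint test (9.97%), again Gpihbp1 and Fabp4. It passed 0 of the 10 in NIA minus chow (1.63% of all genes), UW minus NIA (11.8%), UW minus chow (0.00726%) and the others (0%).

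**Figure D1:**
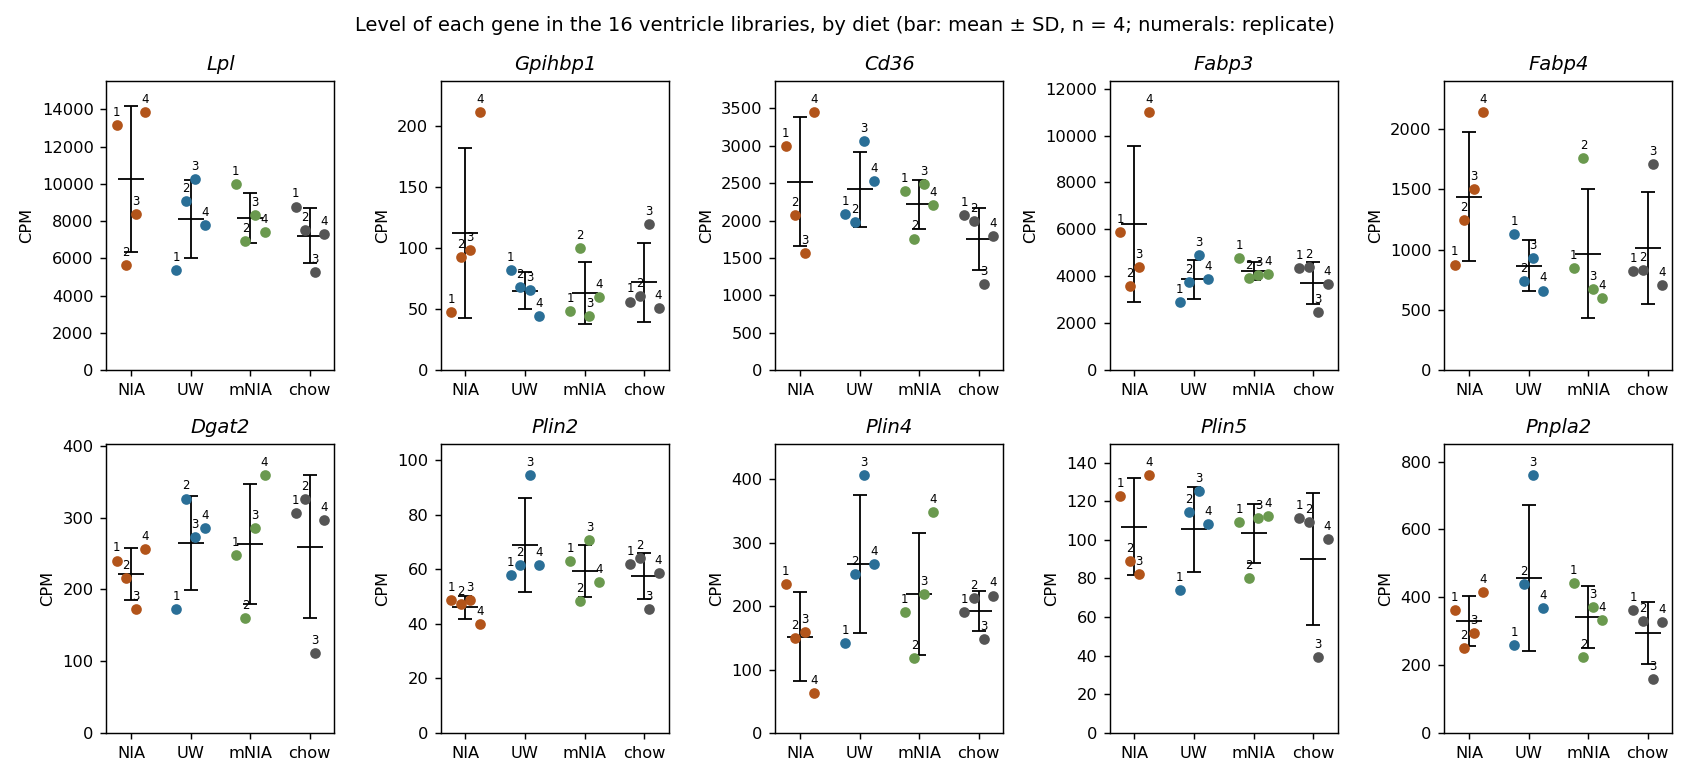
Level of each of the 10 genes in CPM (scaled counts, vertical axes from 0) in the 4 libraries of each diet, with numerals for the replicate and bars for the mean ± SD. The 4 diets overlap for every gene except Plin2, whose 4 UW libraries (57.8 to 94.6 CPM) lie above its 4 NIA libraries (39.8 to 48.7 CPM).

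The ventricle expressed the 10 genes over a wide range. Per kilobase of transcript, a scale on which genes can be set against each other, median levels over the 16 libraries were 4941 CPM per kilobase for Fabp3, 1955 for Lpl, 962 for Fabp4 and 613 for Cd36. They were 193 for Pnpla2, 117 for Dgat2, 76.5 for Gpihbp1, 54.9 for Plin5, 35.1 for Plin4 and 30.8 for Plin2. The genes of lipid uptake and carriage therefore stood above those of the droplet, except Gpihbp1. The 10 genes together took between 1.34% and 2.13% of the counts of a library. Within a diet, the SD of log2 CPM was smallest for Plin2 (0.24) and largest for Plin4 (0.61) and Gpihbp1 (0.61), against a median of 0.42 over all tested genes.

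Lpl and Gpihbp1 act at the capillary wall. Lpl encodes lipoprotein lipase, made in cardiomyocytes, and Gpihbp1 encodes the endothelial protein that binds the enzyme and carries it to the vessel lumen. On mm10, Lpl lies at chr8:68880555-68906933 on the plus strand and Gpihbp1 at chr15:75596630-75598214 on the plus strand. Lpl stood at 13148, 5649, 8397 and 13852 CPM in NIA, at 5362, 9083, 10261 and 7788 CPM in UW, at 9977, 6938, 8301 and 7420 CPM in mNIA, and at 8783, 7547, 5251 and 7305 CPM in chow (replicates 1 to 4). NIA replicates 1 and 4 were the highest of the 16 and NIA replicate 2 was among the lowest, so that NIA spanned nearly the whole range of the other diets. The log2 fold change of Lpl was 0.51 ± 0.32 (SE) in NIA minus chow, 0.17 ± 0.32 in UW minus chow and 0.18 ± 0.32 in mNIA minus chow, with edgeR adjusted p-values of 0.679, 0.977 and 0.983. The 95% confidence interval of the first ran from -0.17 to 1.18. That difference was -0.06 by limma-voom and -0.19 without the 4 libraries of low weight (edgeR adjusted p = 0.697), so its direction rests on those libraries.

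Gpihbp1 stood at 47.8, 92.2, 98.2 and 211 CPM in NIA, at 81.6, 68.0, 65.6 and 44.7 CPM in UW, at 48.3, 99.7, 44.5 and 59.5 CPM in mNIA, and at 56.2, 60.7, 120 and 50.5 CPM in chow. Of the NIA libraries, 3 lay above 3 of the mNIA libraries, yet NIA replicate 1 was among the lowest of all and mNIA replicate 2 among the highest, so the groups overlapped. In mNIA minus NIA its log2 fold change was -0.82 ± 0.39, with an unadjusted p of 0.0467 and an edgeR adjusted p of 0.559. The difference was -0.35 without NIA replicate 4 and -1.20 without mNIA replicate 2, neither past the threshold. By limma-voom, which gives the departing libraries less weight, it was -0.81 with an adjusted p of 0.0387, where 14.8% of all genes passed. Without the 4 libraries of low weight, edgeR gave -0.91 with an adjusted p of 0.00547, where 23.1% of all genes passed. That fit kept 2 NIA and 3 mNIA libraries and gave a joint adjusted p of 0.0292. In UW minus NIA the log2 fold change over all libraries was -0.78 ± 0.38 (edgeR adjusted p = 0.379), and it was -0.27 without NIA replicate 4.

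Cd36, Fabp3 and Fabp4 take fatty acids in and carry them. Cd36 encodes the membrane protein that is the main route of long-chain fatty acids into cardiomyocytes (chr5:17781690-17888960, minus strand). Its level was 2995, 2076, 1565 and 3451 CPM in NIA, 2092, 1976, 3068 and 2526 CPM in UW, 2401, 1760, 2490 and 2209 CPM in mNIA, and 2070, 1992, 1158 and 1790 CPM in chow. The 3 formula groups each had a higher mean than chow, at 2522 ± 857, 2415 ± 495 and 2215 ± 325 CPM for NIA, UW and mNIA against 1752 ± 414 CPM for chow (SD, n = 4 each). Cd36 had the smallest p of the 10 genes in the mean of the 3 formulas minus chow, a log2 fold change of 0.44 ± 0.25 with an interval from -0.08 to 0.96, an unadjusted p of 0.0896 and an edgeR adjusted p of 0.938. That difference was 0.29 without chow replicate 3, the lowest library of all, and 0.15 without the 4 libraries of low weight. In NIA minus chow alone it was 0.52 ± 0.29 (edgeR adjusted p = 0.622), 0.33 without NIA replicate 4, and it turned to -0.12 without those 4 libraries (adjusted p = 0.770).

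Fabp3 encodes the heart-type fatty acid binding protein, the main cytosolic carrier in cardiomyocytes (chr4:130308778-130315464, plus strand). It stood at 5900, 3575, 4398 and 11002 CPM in NIA, at 2919, 3747, 4927 and 3878 CPM in UW, at 4795, 3944, 4053 and 4079 CPM in mNIA, and at 4340, 4404, 2474 and 3681 CPM in chow. NIA replicate 4 held more than any other library, and NIA replicate 2 lay below 3 of the 4 chow libraries. The log2 fold change in NIA minus chow was 0.74 ± 0.34, with an unadjusted p of 0.0404 and an edgeR adjusted p of 0.544, and it was 0.31 without NIA replicate 4. Without the 4 libraries of low weight it was -0.077 (adjusted p = 0.867). In UW minus NIA it was -0.68 ± 0.33 (edgeR adjusted p = 0.371), and -0.24 without NIA replicate 4. The Fabp3 locus overlaps Zcchc17 on the opposite strand. The kit kept strand, but whether the counting used it is not given in the sources used here, so reads of the pair may not be fully separated.

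Fabp4 encodes a fatty acid binding protein of adipocytes, macrophages and capillary endothelium (chr3:10204343-10208617, minus strand). It stood at 877, 1244, 1501 and 2141 CPM in NIA, at 1132, 741, 930 and 661 CPM in UW, at 847, 1757, 673 and 595 CPM in mNIA, and at 820, 832, 1709 and 706 CPM in chow. NIA replicates 2, 3 and 4, mNIA replicate 2 and chow replicate 3 were the high libraries, so each diet but UW held at least 1 of them. In mNIA minus NIA the log2 fold change was -0.57 ± 0.38 (edgeR adjusted p = 0.681). It was -0.85 by limma-voom (adjusted p = 0.0372), where 14.8% of all genes passed. Without the 4 libraries of low weight it was -0.96 by edgeR (adjusted p = 0.00722), where 23.1% of all genes passed. That fit gave a joint adjusted p of 0.0388 and kept 2 NIA and 3 mNIA libraries. The libraries left out include the lowest of NIA (877 CPM) and the highest of mNIA (1757 CPM). None of 8 white adipocyte markers reached the filter. Adipoq gave 16 counts in all 16 libraries together and was at 0 in 10 of them, Cfd gave 16 and Plin1 10, and Retn, Lep and Cidec were not listed. Of 2 brown adipocyte markers, Ucp1 was not listed, and Cidea had a median of 29.4 CPM and was above 0 in all 16 libraries. The part of fat tissue in the Fabp4 values was not tested.

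**Figure D2:**
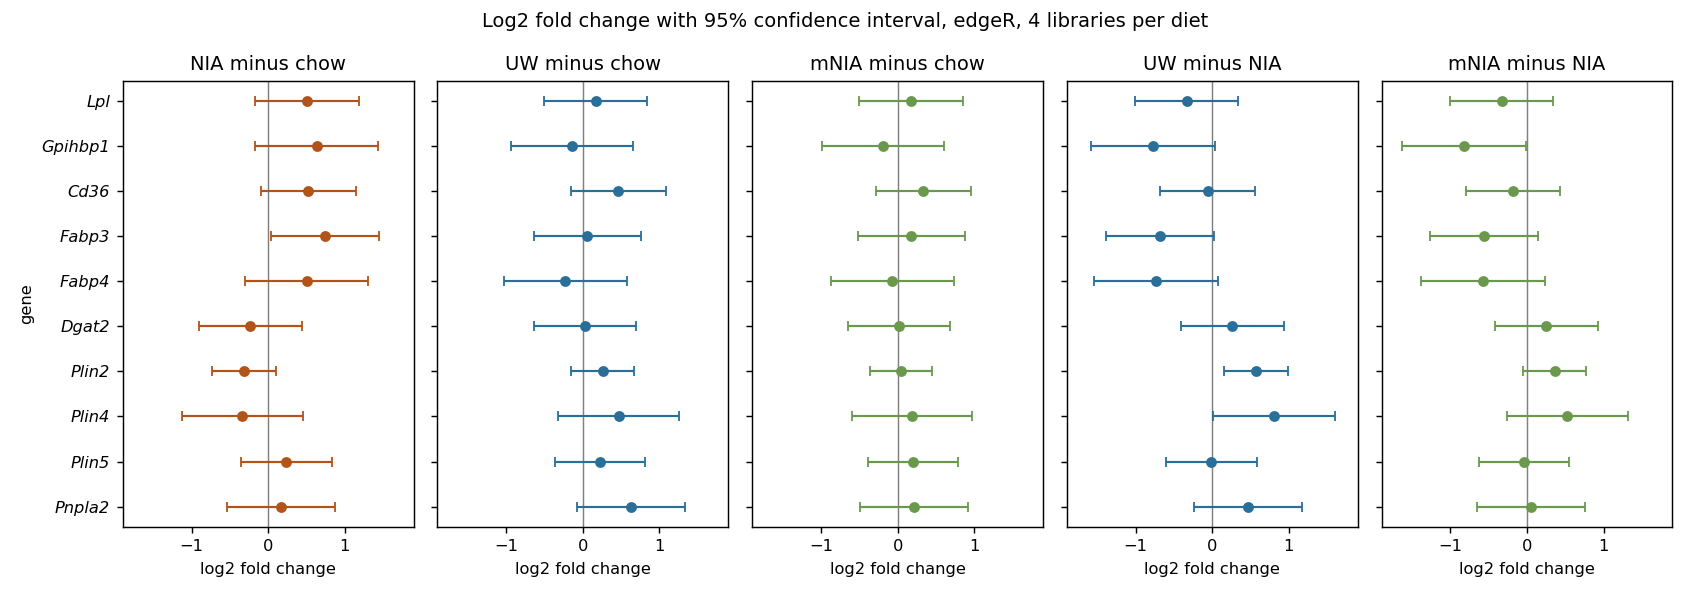
Log2 fold change of each gene (horizontal axes) with its 95% confidence interval from edgeR in 5 diet contrasts, 4 libraries per diet, first-named diet minus the second. The intervals exclude 0 for Fabp3 in NIA minus chow (0.74), Plin2 and Plin4 in UW minus NIA (0.57 and 0.81) and Gpihbp1 in mNIA minus NIA (-0.82), none of which passed after adjustment over 13381 genes.

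The droplet genes held 1 case, Plin2, of 2 diets that did not overlap. The shares over all tested genes, given below, do not set this case apart. Plin2 encodes perilipin 2, a coat protein found on droplets of most cells (chr4:86656565-86670060, minus strand). Its level was 57.8, 61.5, 94.6 and 61.5 CPM in UW, against 48.7, 47.1, 48.7 and 39.8 CPM in NIA, and it ran from 48.5 to 70.7 CPM in mNIA and from 45.3 to 64.2 CPM in chow. All 4 UW libraries lay above all 4 NIA libraries, as they did for 3.29% of all tested genes, and 3.06% lay wholly lower in UW. In the other pairs 0 of the 10 genes had groups that did not overlap. Over all genes, 1.32% were wholly higher and 1.91% wholly lower in NIA than in chow, 1.97% and 2.48% in UW than in chow, and 0.897% and 1.26% in mNIA than in chow. In mNIA, 1.46% were wholly higher and 0.882% wholly lower than in NIA, and 0.77% and 0.665% than in UW. The means were 68.8 ± 17.3 CPM in UW and 46.1 ± 4.23 CPM in NIA. In UW minus NIA the log2 fold change was 0.57 ± 0.20, with an interval from 0.16 to 0.99, an unadjusted p of 0.00949 and an edgeR adjusted p of 0.213. It was 0.38 without UW replicate 3 and 0.54 without the 4 libraries of low weight (adjusted p = 0.0525). In mNIA minus NIA it was 0.36 ± 0.20 (edgeR adjusted p = 0.607).

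Plin4 encodes perilipin 4, a coat protein known from white fat and striated muscle (chr17:56100591-56109803, minus strand). It stood at 142, 251, 407 and 266 CPM in UW, against 235, 149, 159 and 63.3 CPM in NIA, and it ran from 118 to 349 CPM in mNIA and from 149 to 217 CPM in chow. UW replicate 3 was the highest of the 16 libraries and NIA replicate 4 the lowest, and UW replicate 1 lay within NIA. In UW minus NIA the log2 fold change was 0.81 ± 0.38, with an unadjusted p of 0.0464 and an edgeR adjusted p of 0.350, and it was 0.53 without UW replicate 3. Plin4 overlaps Hdgfl2 on the opposite strand.

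Plin5 encodes perilipin 5, which ties droplets to mitochondria in oxidative tissues (chr17:56111601-56117549, minus strand). It ran from 82.3 to 134 CPM in NIA, from 74.1 to 125 CPM in UW, from 80.4 to 112 CPM in mNIA and from 39.5 to 111 CPM in chow. In chow, replicate 3 stood at 39.5 CPM and the other libraries between 101 and 111 CPM. The log2 fold changes of Plin5 against chow were 0.24 ± 0.28 in NIA, 0.23 ± 0.28 in UW and 0.20 ± 0.28 in mNIA, none past the threshold in edgeR. In NIA it was -0.19 by limma-voom and -0.34 without the 4 libraries of low weight, and in UW it was -0.02 without those libraries.

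Pnpla2 and Dgat2 stand at opposite ends of triglyceride turnover. Pnpla2 encodes adipose triglyceride lipase, which takes the first fatty acid off stored triglyceride (chr7:141455188-141460744, plus strand). It stood at 259, 438, 761 and 368 CPM in UW, against 361, 331, 158 and 326 CPM in chow, and it ran from 249 to 416 CPM in NIA and from 223 to 441 CPM in mNIA. In UW minus chow the log2 fold change was 0.63 ± 0.34, with an unadjusted p of 0.0748 and an edgeR adjusted p of 0.977. It was 0.27 without UW replicate 3, the highest library. In NIA minus chow it was 0.17 ± 0.33, and -0.34 without the 4 libraries of low weight. Dgat2 encodes a diacylglycerol acyltransferase, which performs the last step of triglyceride synthesis (chr7:99153663-99182714, minus strand). It ran from 173 to 257 CPM in NIA, from 173 to 327 CPM in UW, from 160 to 360 CPM in mNIA and from 111 to 325 CPM in chow. Its log2 fold changes against chow were -0.23 ± 0.32 in NIA, 0.03 ± 0.32 in UW and 0.02 ± 0.32 in mNIA, none past the threshold in edgeR. The NIA difference was -0.56 by limma-voom and -0.69 without the 4 libraries of low weight (edgeR adjusted p = 0.0878).

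By edgeR with all 16 libraries, more of the 10 genes had a positive than a negative log2 fold change against chow in each formula group, but in NIA this turned without the libraries of low weight. In NIA minus chow 7 were higher and 3 lower, with a median log2 fold change of 0.37 against -0.01 over all tested genes, but limma-voom put 4 higher and 6 lower with a median of -0.12. Without the 4 libraries of low weight edgeR put 2 higher, Gpihbp1 and Fabp4, and 8 lower, with a median of -0.26. In UW minus chow 8 were higher and 2 lower, with a median of 0.20 against -0.01, and in mNIA minus chow 8 were higher and 2 lower, with a median of 0.18 against 0.01. Without the 4 libraries 7 were higher and 3 lower in each, with medians of 0.15 in UW and 0.03 in mNIA. These contrasts share the 4 chow libraries. Chow replicate 3 was the lowest of all 16 libraries for Lpl, Cd36, Fabp3, Plin5, Pnpla2 and Dgat2. In UW minus NIA 4 were higher and 6 lower, with a median of -0.04, and limma-voom put 7 higher and 3 lower with a median of 0.28.

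Promoter sequences are shown for the 3 perilipins and for Pnpla2, because they hold the gene whose UW and NIA groups did not overlap (Plin2) and a pair that varied together across libraries (Plin5 with Pnpla2, described after the sequences). Each window runs from 250 bases before to 50 bases after a RefSeq transcription start on GRCm38.p6, 5′ to 3′ on the strand of the gene. Capitals mark the letters AGGTCA on either strand, the half-site bound by PPARs and other nuclear receptors, and the palindrome CACGTG, an E-box. The windows are chr4:86670010-86670309 (minus) for Plin2, chr17:56109733-56110032 (minus) for Plin4, chr17:56117499-56117798 (minus) for the first of 2 Plin5 starts, and chr7:141454938-141455237 (plus) for Pnpla2.
Plin2: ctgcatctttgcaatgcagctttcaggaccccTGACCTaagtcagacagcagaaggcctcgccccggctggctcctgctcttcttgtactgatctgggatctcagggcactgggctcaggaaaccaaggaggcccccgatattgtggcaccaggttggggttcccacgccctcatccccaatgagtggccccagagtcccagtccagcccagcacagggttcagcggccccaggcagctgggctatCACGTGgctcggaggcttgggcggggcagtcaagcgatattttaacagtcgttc
Plin4: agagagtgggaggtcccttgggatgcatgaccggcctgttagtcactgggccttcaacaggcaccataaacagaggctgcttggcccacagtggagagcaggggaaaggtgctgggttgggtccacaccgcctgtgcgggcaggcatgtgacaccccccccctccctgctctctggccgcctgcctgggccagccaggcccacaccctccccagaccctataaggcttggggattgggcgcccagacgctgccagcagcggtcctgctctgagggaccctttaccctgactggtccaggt
Plin5: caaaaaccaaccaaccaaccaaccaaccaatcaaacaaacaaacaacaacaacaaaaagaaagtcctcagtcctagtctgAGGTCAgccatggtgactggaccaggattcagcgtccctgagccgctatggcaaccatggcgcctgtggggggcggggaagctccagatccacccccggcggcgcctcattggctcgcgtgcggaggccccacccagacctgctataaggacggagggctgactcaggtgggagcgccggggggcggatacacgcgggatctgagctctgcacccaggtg
Pnpla2: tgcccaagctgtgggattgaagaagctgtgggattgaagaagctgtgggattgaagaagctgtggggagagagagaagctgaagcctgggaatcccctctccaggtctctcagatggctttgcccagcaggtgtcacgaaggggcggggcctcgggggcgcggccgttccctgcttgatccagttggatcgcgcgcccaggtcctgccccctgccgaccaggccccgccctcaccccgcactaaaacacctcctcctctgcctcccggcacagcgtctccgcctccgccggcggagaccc
AGGTCA occurred in the Plin2 window 218 bases before the start and in the Plin5 window 170 bases before it, and it was not found in the Plin4 and Pnpla2 windows. CACGTG occurred in the Plin2 window 4 bases before the start and in none of the other 3. Of the 6 genes among the 10 with a window in the table, Cd36 also held AGGTCA, 228 bases before its start, and Fabp3 did not. On both strands, AGGTCA occurs in 16.3% and CACGTG in 7.15% of 32851 mouse windows of the same length. The direct repeat of AGGTCA, any base and AGGTCA again, a form bound by PPAR with its partner RXR that itself contains AGGTCA, is in 0.0396% of windows and in none of these genes' windows. These matches describe letters in a window and are not shown to be bound.

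The 10 genes fell into patterns of variation that crossed the diets. Pearson's r of log2 CPM over the 16 libraries was computed for all 45 pairs, with permutation p-values adjusted over the 45. Of the pairs, 14 positive and 5 negative correlations passed, and after each diet's mean was subtracted 18 positive and 4 negative passed, 18 pairs passing both ways. The share of passing pairs among other tested genes was not computed, so these counts are not shown to be particular to the 10 genes. The strongest pair was Gpihbp1 with Fabp4, at r = 0.91 and rho = 0.82 (permutation adjusted p = 0.00015 and 0.00117), 0.89 with diet means subtracted and 0.85 without NIA replicate 4 and chow replicate 3, the libraries farthest from the median of Gpihbp1.

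**Figure D3:**
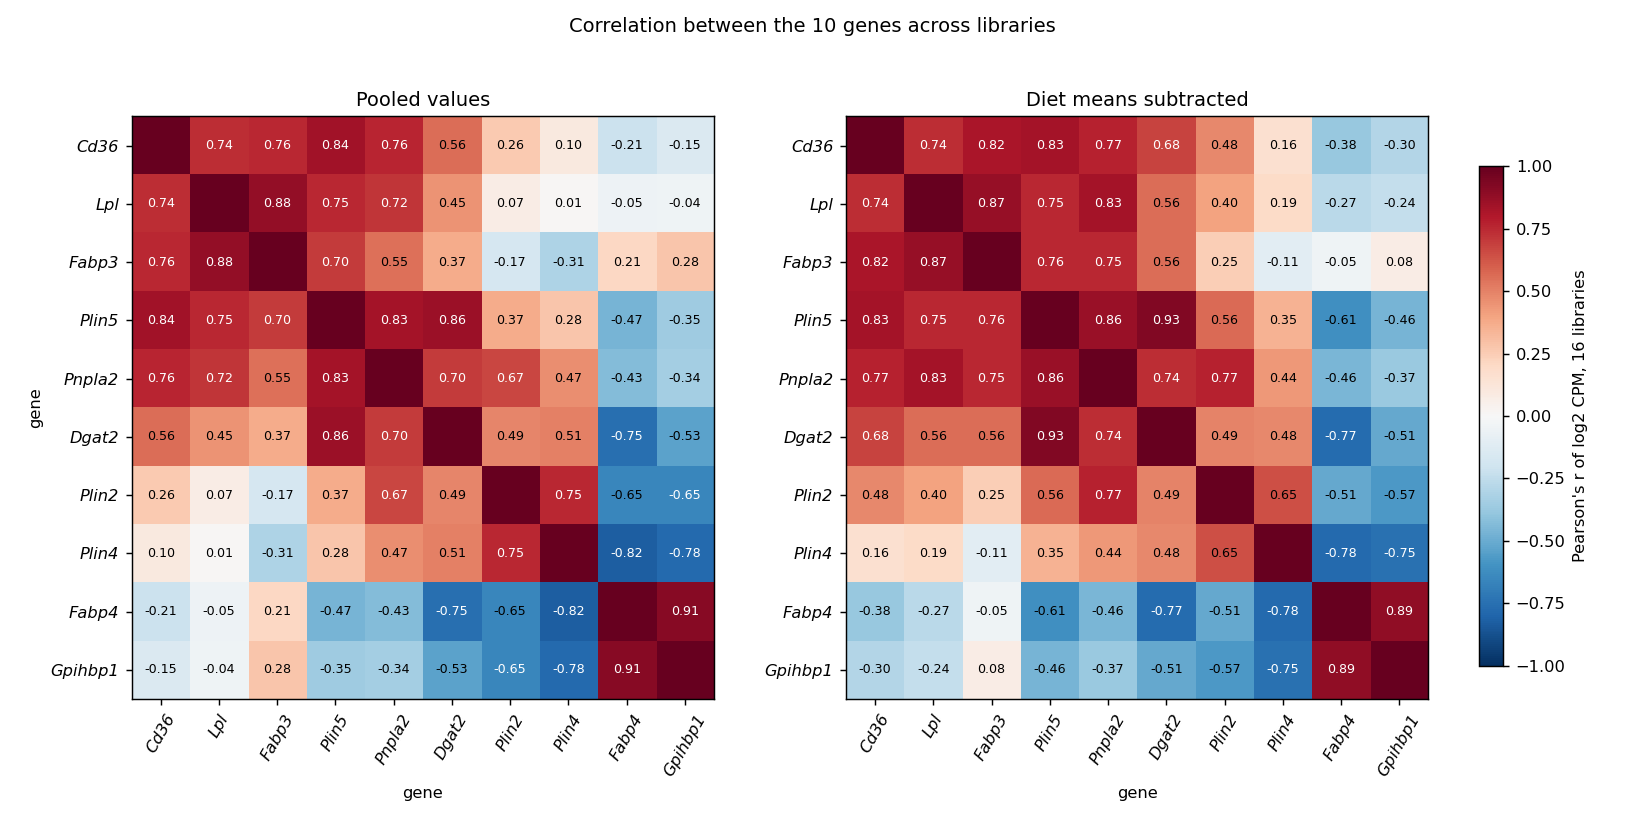
Pearson's r of log2 CPM between each pair of the 10 genes over 16 libraries, from the pooled values and after each diet's mean was subtracted (colour scale from -1 to 1). Cd36, Lpl, Fabp3, Plin5, Pnpla2 and Dgat2 form a positive block, Gpihbp1 with Fabp4 is at 0.91, and Plin4 with Fabp4 is at -0.82. Within the block, Dgat2 with Cd36 (0.56), Lpl (0.45) and Fabp3 (0.37), and Fabp3 with Pnpla2 (0.55), missed the adjusted threshold in the pooled values. They passed it with diet means subtracted.

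A second block held genes of lipid uptake and of droplet turnover, though not every pair in it passed in the pooled values. Lpl and Fabp3 varied together at r = 0.88 and rho = 0.85 (permutation adjusted p = 0.00015 and 0.00117), 0.87 with diet means subtracted and 0.87 without the 2 farthest libraries, NIA replicates 1 and 4. Plin5 followed Dgat2 at r = 0.86 and rho = 0.59 (permutation adjusted p = 0.000675 and 0.0445), and r was 0.68 without UW replicate 1 and chow replicate 3. Plin5 followed Cd36 at r = 0.84 and rho = 0.72 (permutation adjusted p = 0.00045 and 0.0111), and r was 0.68 without NIA replicate 4 and chow replicate 3. Plin5 followed Pnpla2 at r = 0.83 and rho = 0.84 (permutation adjusted p = 0.00045 and 0.00117), and r was 0.76 without UW replicate 1 and chow replicate 3. Each of these 3 Plin5 pairs passed again with diet means subtracted, at r = 0.93, 0.83 and 0.86. The coat gene Plin5 thus varied with the lipase and with the synthesis enzyme alike.

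The perilipins did not move as 1 group. Plin2 and Plin4, on different chromosomes, had r = 0.75 and rho = 0.61 (permutation adjusted p = 0.00467 and 0.035) and 0.65 with diet means subtracted, but r was 0.48 (adjusted p = 0.103) without NIA replicate 4 and UW replicate 3, so the relation rests on those libraries. Plin4 and Plin5 lie side by side on the minus strand of chromosome 17, with 1797 bases and 0 annotated genes between them, and had r = 0.28 and rho = 0.52 (permutation adjusted p = 0.356 and 0.0818). Without NIA replicate 4 and UW replicate 3 their r was 0.64 (adjusted p = 0.0256). The clearest opposition was Plin4 with Fabp4, at r = -0.82 and rho = -0.79 (permutation adjusted p = 0.00015 and 0.0036), -0.78 with diet means subtracted and -0.67 without NIA replicate 4 and mNIA replicate 2. Fabp4 with Dgat2 was at r = -0.75 and rho = -0.80 (permutation adjusted p = 0.00405 and 0.003), and at -0.91 without the same libraries.

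Cell type markers moved with these patterns. In whole ventricle RNA, fewer cells of a type and less RNA per cell cannot be told apart. All 11 endothelial markers were tested and none was at 0 in any library, and their summed level ran from 797 to 2210 CPM in NIA, from 1629 to 2716 CPM in UW, from 1520 to 2589 CPM in mNIA and from 1747 to 2939 CPM in chow. The endothelial level of a library was taken as the median over those markers of log2 CPM minus the gene mean, and the cardiomyocyte level likewise over 10 markers, with p-values adjusted over the 20 correlations with both. Against the endothelial level, Fabp3 had r = -0.87 and rho = -0.70 (permutation adjusted p = 0.00028 and 0.0076), and r was -0.64 without NIA replicate 4 and chow replicate 3. Lpl was at r = -0.84, Plin5 at -0.81, Cd36 at -0.80, Pnpla2 at -0.65 and Dgat2 at -0.65, all past the adjusted threshold, also with diet means subtracted. Against the cardiomyocyte level the same 6 genes were positive and past the threshold, from r = 0.64 for Cd36 and Dgat2 to 0.90 for Lpl. By rank, Cd36 (rho = 0.49, permutation adjusted p = 0.104) and Dgat2 (0.44, adjusted p = 0.154) missed the threshold against the cardiomyocyte level, and Dgat2 (-0.52, adjusted p = 0.0796) missed it against the endothelial level. Over all 16 libraries Plin2 and Plin4 passed against neither level. Without NIA replicate 4 and chow replicate 3, Plin4 had r = -0.69 with the endothelial level (permutation adjusted p = 0.0129). Without NIA replicate 4 alone, a choice made after seeing the data, it had r = -0.71 with the endothelial level and 0.59 with the cardiomyocyte level (permutation adjusted p = 0.00495 and 0.0239). By rank in that fit, Plin4 missed the threshold against the cardiomyocyte level (rho = 0.46, permutation adjusted p = 0.0887). Without NIA replicate 2 and UW replicate 1, its r with the cardiomyocyte level was -0.10 (permutation adjusted p = 0.801). The part of cell makeup in the diet differences was not tested.

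**Figure D4:**
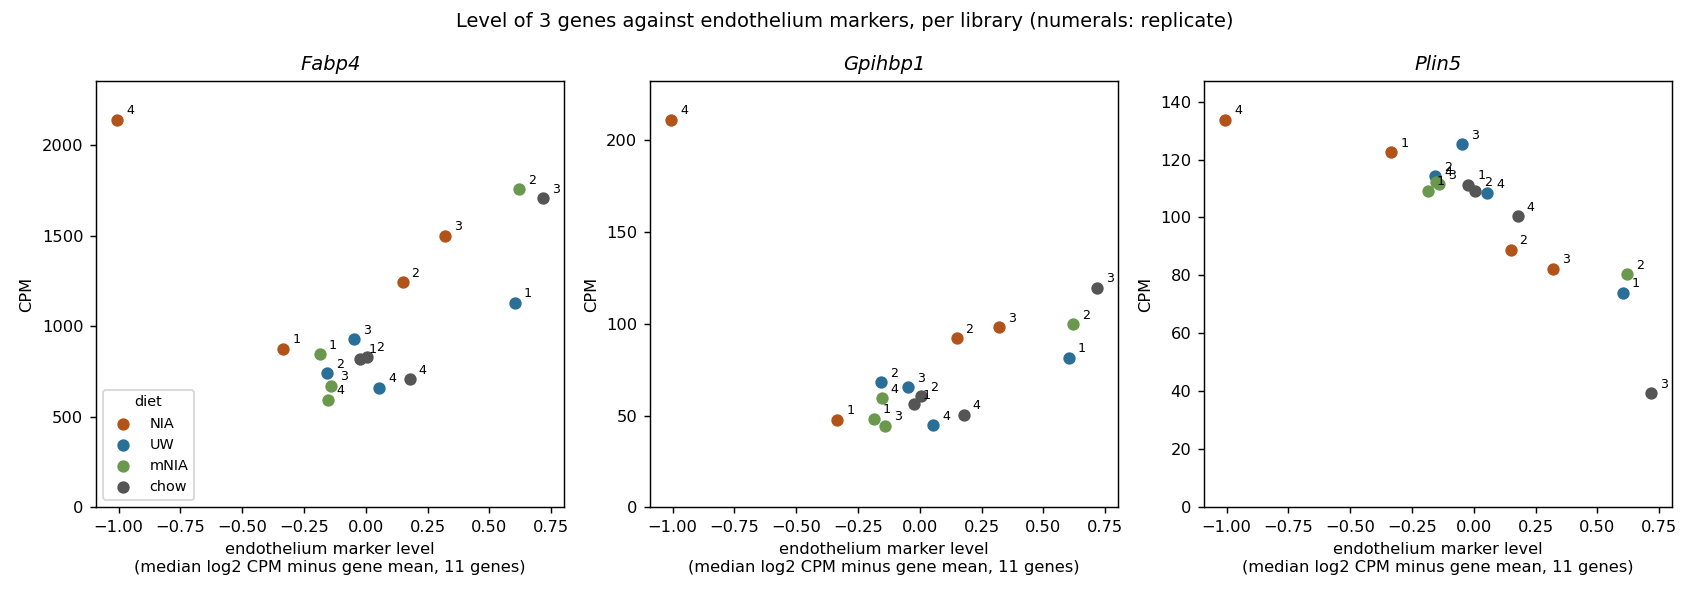
Level of Fabp4, Gpihbp1 and Plin5 in CPM (vertical axes) against the endothelial marker level (horizontal axes, median log2 CPM minus gene mean over 11 markers) in 16 libraries coloured by diet, with numerals for the replicate. Over the other 15 libraries r is 0.79 for Fabp4 and for Gpihbp1 on the log2 scale, and NIA replicate 4 has the lowest marker level (-1.01) and the highest values of both (2141 and 211 CPM). Plin5 has r = -0.81 over all 16.

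The relation of Gpihbp1 and Fabp4 to the endothelial markers turned on NIA replicate 4. Over all 16 libraries their r with the endothelial level was -0.02 for Gpihbp1 and 0.16 for Fabp4 (permutation adjusted p = 0.982 and 0.750, rho 0.37 and 0.29), and without NIA replicate 4 alone it was 0.79 for each (permutation adjusted p = 0.00177 and 0.0018, rho 0.67 and 0.56). Without NIA replicate 4 and chow replicate 3 it was 0.72 for each (adjusted p = 0.0103 and 0.0105). NIA replicate 4 had the lowest summed endothelial level, 797 CPM, and the highest Gpihbp1 and Fabp4. Its median marker level was also the lowest of the 16 for fibroblasts (-0.80) and for pericytes and smooth muscle (-0.85). The summed CPM of those markers was not the lowest there (1236 and 1300 CPM). The transcripts of Fabp3 (823 bases), Gpihbp1 (825 bases) and Fabp4 (896 bases) are the shortest of the 10, and all stood highest in NIA replicate 4, the library low in long transcripts. Plin4, at 5756 bases the longest of the 10, was lowest in that library, as was Plin2, at 1888 bases. Lpl (4115 bases), Cd36 (3399 bases) and Plin5 (1986 bases) were also highest there. The part of transcript length in these values was not tested.

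The wider pathway showed 0 calls as well. The lists held 11 tested of 13 genes of fatty acid import and activation, 10 of 13 of lipase processing and lipoprotein receptors, 12 of 14 of triglyceride synthesis, 12 of 14 of droplet coat and growth, 7 of 7 of lipolysis and 9 of 9 of PPAR regulators. None passed in edgeR in any contrast or in the joint test. Unadjusted p-values under 0.05 were most frequent in UW minus NIA, with 4 of the lipase and receptor list, all higher in UW. There were also 3 of the droplet coat list and 1 of the import list, beside 1858 of all 13381 tested genes. NIA minus chow had 2 of the lipase and receptor list, both lower, and 1 each of the import, synthesis and droplet coat lists, beside 1164 genes. In mNIA minus NIA there were 2 of the droplet coat list and 1 of the import list, beside 1192 genes. The median log2 fold change of the lipase and receptor list in UW minus NIA was 0.37 against -0.0036 over all tested genes. In the same contrast 9 of 11 endothelial markers were higher, with a median of 0.38, and 7 of 10 cardiomyocyte markers were lower, with a median of -0.35. Their part in the list's median was not tested.

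The genes named from these lists were taken from those with the smallest joint p in each. Dbi, the acyl-CoA binding protein, had 187, 145, 155 and 622 CPM in NIA, 110 to 133 CPM in UW, 123 to 168 CPM in mNIA and 112 to 142 CPM in chow. All 4 NIA libraries lay above all 4 chow libraries, as they did for 1.32% of all tested genes. NIA replicate 4 was far above the rest, and the log2 fold change was 1.09 ± 0.36 (edgeR adjusted p = 0.419). G0s2, an inhibitor of the lipase that Pnpla2 encodes, had 34.8, 30.2, 32.5 and 107 CPM in NIA and a log2 fold change of 0.84 ± 0.32 over chow (edgeR adjusted p = 0.481). Its 4 NIA libraries also lay above all 4 chow libraries (24.8 to 29.9 CPM), by a narrow margin, and NIA replicate 4 was the highest. Dbi, G0s2 and the genes below were all named for a small joint p, a choice that favours such a separation. Lrp1, a large receptor for lipoprotein remnants, was at 0.87 ± 0.35 in UW minus NIA (edgeR adjusted p = 0.273), with 19.9 CPM in NIA replicate 4 against 95.6 to 128 CPM in the other NIA libraries. Dgat1, the other enzyme of the last synthesis step, was at -0.43 ± 0.18 in the mean of the 3 formulas minus chow (edgeR adjusted p = 0.938). Cideb, a droplet growth protein of liver, was at 1.63 ± 0.65 in UW minus NIA (edgeR adjusted p = 0.265), on few counts. It stood at 0, 0.760, 0.167 and 2.13 CPM in NIA and at 1.17 to 2.52 CPM in UW. Acsl3, Lpin2, Lipe, Abhd5, Rxra and Rxrb had adjusted p-values above the threshold in every contrast. Other pairs of groups did not overlap either, in both directions. Lrp1 and Lpin2 lay wholly lower in NIA than in chow, as did 1.91% of all tested genes. In UW, Dgat1 lay wholly lower than in chow (2.48% of all genes) and Acsl3 wholly higher (1.97%). Rxra lay wholly higher in UW than in NIA (3.29%) and Dbi wholly lower (3.06%).

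The genes most like each of the 10 over the 16 libraries, the 2 with the highest Pearson's r of log2 CPM among all tested genes, are given as a description. They were Serpinb6b (0.95) and Retreg1 (0.95) for Cd36, Psmd7 (0.98) and Idh3g (0.96) for Lpl, and S100a13 (0.97) and S100a10 (0.96) for Gpihbp1. For Fabp3 they were Atp5f1 (0.98) and Clybl (0.98), and for Fabp4 Gas5 (0.98) and Ecscr (0.97). Plin5 was most like Etfa (0.98) and Etfdh (0.97), Pnpla2 like Ephx2 (0.92) and Acot1 (0.92), and Dgat2 like Aldh4a1 (0.98) and Fem1a (0.97). Plin4 was most like Clip1 (0.94) and Eef2k (0.94). Plin2 had the weakest partners of the 10, Pnpla7 (0.88) and Rfc1 (0.85). The libraries share their depth and composition in all of these values.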

How the data were processed

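Ventricle poly-A RNA of 16 male mice was sequenced, 4 animals per diet, and each library is 1 animal. The deposited values are expected counts per gene, not scaled. The submitters' processing notes name BWA, DESeq2 and mm10, and the counting tool, its gene models and its use of strand are not given in the sources used here. Expected counts were rounded. The 10 members had between 56 and 416282 counts per library and all passed the filter, as did 13381 of 17737 genes (75.4%).

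Genes were tested in R 4.3.3 with edgeR 4.0.16 (filterByExpr by diet, TMM, robust quasi-likelihood, 1 mean per diet, square root of the common dispersion 0.28), 2-sided, with Benjamini-Hochberg adjustment over all tested genes. CPM values are TMM-scaled, and log2 CPM used a prior count of 2. Alternatives were DESeq2 1.42.0, limma-voom (limma 3.58.1) with quality weights, RLE size factors, other filters, the replicate number as a block, 2 groups alone, and removal of each library. Removal of the 4 libraries of low weight, and thinning NIA replicate 2 to the median depth, were added after seeing the data. The test was tried on simulated data with known changes. Correlations used 100000 permutations. Lengths came from GENCODE vM21 and promoters from RefSeq on GRCm38.p6, where 6 of the 10 genes matched.

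The members and gene lists were chosen with earlier results of these data known. From each pathway list the text names genes past the threshold and the 2 with the smallest joint p, and for each member the 2 genes with the highest r, clone names left out. Values of 1 gene that this rule takes are not reported here. Phtf1os and the genes named beside counts of the other settings fall outside this rule and were named after their values were seen.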

Additional observations from a re-analysis of the deposited data

Results flagged for a closer look

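Within a diet, a library was singled out where its gap to the nearest of the other 3, on log2 CPM, took up a larger share of the range than Dixon's 95% limit allows. This held for 6 of 40 gene and diet groups, where chance gives about 1 in 20 if the groups are independent. They are not, as the genes share the same libraries and several of them vary together. The share among all tested genes was not computed, so the count is not shown to be particular to these genes. Plin2 stood at 39.8 CPM in NIA replicate 4, with the other NIA libraries at 47.1 to 48.7 CPM, and at 94.6 CPM in UW replicate 3, with the other UW libraries at 57.8 to 61.5 CPM. Plin5 stood at 80.4 CPM in mNIA replicate 2, with the others at 109 to 112 CPM.

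Chow replicate 3 was singled out for 3 genes. Plin5 stood at 39.5 CPM against 101 to 111 CPM in the other chow libraries, Pnpla2 at 158 CPM against 326 to 361 CPM, and Dgat2 at 111 CPM against 296 to 325 CPM. The same library had the highest endothelial marker level of the 16, 0.72, and mNIA replicate 2 the next highest, 0.62. Their part in these values was not tested.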

How the results depend on the processing

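None of the 10 genes passed in any contrast with edgeR under RLE size factors, no filter, a floor of 1 CPM in 4 libraries, the replicate block, the 2 groups alone, NIA replicate 2 thinned to the median depth, or removal of any single library, nor with DESeq2. Limma-voom passed 2 in mNIA minus NIA (14.8% of all genes). EdgeR without the 4 libraries of low weight passed 2 in mNIA minus NIA (23.1%) and 2 in the joint test (9.97%), Gpihbp1 and Fabp4 in each case. Without those libraries 21 of the 60 log2 fold changes of the 10 genes between 2 diets changed sign, all short of the threshold. In NIA minus chow these were Cd36 (-0.12), Lpl (-0.19), Fabp3 (-0.077), Plin5 (-0.34) and Pnpla2 (-0.34), and in UW minus NIA Cd36 (0.43), Lpl (0.23) and Plin5 (0.32). The other 13 were 5 in UW minus chow, 1 in mNIA minus chow, 4 in mNIA minus NIA and 3 in mNIA minus UW. By limma-voom 16 of the 60 changed sign.

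Counts over all genes varied more, from 0 in most contrasts with all libraries. DESeq2 passed 127 genes in NIA minus chow, 1 in UW minus chow (Abca1), 0 in mNIA minus chow, 375 in UW minus NIA, 3 in mNIA minus NIA (Cmtr1, Cxcl1 and D830031N03Rik), 1 in mNIA minus UW (Serpina3n) and 174 in the joint test. Limma-voom passed 28, 1 (Abca1), 1 (Phtf1os), 916, 1979, 1 (Ptx3) and 1980 in the same order, and 4 in the mean of the 3 formulas minus chow (Abca1, Gdf10, Nedd9 and Phtf1os). EdgeR without the 4 libraries passed 224 in NIA minus chow, 1 in UW minus chow (Abca1), 0 in mNIA minus chow, 1627 in UW minus NIA, 3184 in mNIA minus NIA and 1374 in the joint test. The 1 gene of mNIA minus chow was lost (0 genes) under the replicate block, the 2 groups alone and the thinning. It was also lost in 14 of the 16 fits that left out 1 library. The causes were not tested.

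Leaving out 1 library gave 0 to 116 genes in NIA minus chow, 0 to 217 in UW minus NIA and 0 to 110 in the joint test, each highest without NIA replicate 2. It gave 0 to 1 in mNIA minus chow and 0 to 1 in mNIA minus UW (Cyp1a1, without UW replicate 3, which also gave 1 in UW minus NIA and in the joint test). None of the 11 differences of the 10 genes with an unadjusted p under 0.1 changed sign when 1 library was left out. They were picked by p in these same data, which favours a stable sign. Without the 4 libraries of low weight, Cd36 (-0.12) and Fabp3 (-0.077) in NIA minus chow did change sign.

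The replicate numbers did not pair the libraries. The 24 correlations between same-numbered libraries of different diets ran from -0.58 to 0.61, 9 of them over 0.1, and 4 of 16 libraries correlated best with their own number. With the replicate block 0 of the 10 genes passed, as without it. Of the correlations that passed, Cd36 with Lpl and with Fabp3, Gpihbp1 with Plin2 and with Plin4, Fabp4 with Plin2, and Plin2 with Plin4 missed the threshold without the 2 farthest libraries. Plin2, at 39.8 to 94.6 CPM, rested on the fewest counts in NIA replicate 4.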
